A study of Mus musculus with 6 samples.

Results

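The genes described here are 10 members of the NLRP family that mouse oocytes express: Nlrp2, Nlrp4b, Nlrp4c, Nlrp4e, Nlrp4f, Nlrp5, Nlrp9a, Nlrp9b, Nlrp9c and Nlrp14. They were chosen by symbol from the 23284 gene symbols of the count files by a rule that uses no value, though with earlier results of these data known, and all 10 were present in the files and passed the filter on low counts. RNA was sequenced from fully grown oocytes at the germinal vesicle (GV) stage, which have not yet resumed meiosis. The Lsd1 KO group held 3 samples with the Lsd1 deletion and the Control group 3 samples with the control genotype, all of mixed C57BL/6 and 129 strain. A sample was a pool of 100 oocytes. The donor females were aged 4 to 6 weeks and had received 5 IU of PMSG, a gonadotrophin from mare serum that makes follicles grow, 48 hours earlier. The sources used here do not give the allele, any Cre driver or the number of animals behind a pool. The comparison asks how loss of the histone demethylase LSD1 changes the transcripts of the GV oocyte. The deleted gene Kdm1a, the formal symbol of Lsd1, had 47, 31 and 36 counts in Lsd1 KO, against 799, 962 and 492 for Control.

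NLRP proteins carry a pyrin domain, a nucleotide-binding NACHT domain and a run of leucine-rich repeats. Several family members outside the germ line assemble inflammasomes, the complexes that activate caspase-1. A separate set, expanded by tandem duplication in rodents, is expressed chiefly in oocytes, and its transcripts are stored in the egg. Nlrp5, also called Mater, was among the first maternal-effect genes described in mice and encodes a core subunit of the subcortical maternal complex. Nlrp2 and Nlrp14 are also maternal-effect genes, needed in the mother's oocyte for the embryo to develop. The Nlrp4 and Nlrp9 groups are each made of duplicates of one another.

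Total counts in genes ran from 10735422 to 13035045 per library. Levels below are CPM, counts scaled to a common library size, with TMM correction for library composition, given as mean ± SD over the 3 libraries of a genotype. A log2 fold change compares Lsd1 KO with Control and is given ± SE, in places with its 95% interval. Adjusted p-values are from edgeR's quasi-likelihood test with Benjamini-Hochberg adjustment over the 12935 genes tested, and a gene is called at an adjusted p under 0.05. The submitters call the 3 samples of a genotype biological replicates and say no more of their source, so p-values measure the spread between these samples.

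Because the members are duplicates of one another, their sequences are shown before their levels. In the coding sequence of the longest annotated isoform (GENCODE M1, mm9), Nlrp9a and Nlrp9c were 87.7% identical, Nlrp9a and Nlrp9b 84.2%, and Nlrp9b and Nlrp9c 82.8%. The 120 bases from the start codon of the 3 Nlrp9 genes follow, with capitals at the 28 positions where the 3 are not all the same. They show where the copies differ within this stretch.
Nlrp9a: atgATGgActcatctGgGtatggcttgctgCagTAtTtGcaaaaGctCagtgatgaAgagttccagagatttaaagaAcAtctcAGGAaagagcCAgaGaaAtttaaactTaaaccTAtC
Nlrp9b: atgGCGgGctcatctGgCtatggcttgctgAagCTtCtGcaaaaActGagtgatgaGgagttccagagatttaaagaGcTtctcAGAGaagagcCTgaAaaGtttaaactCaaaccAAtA
Nlrp9c: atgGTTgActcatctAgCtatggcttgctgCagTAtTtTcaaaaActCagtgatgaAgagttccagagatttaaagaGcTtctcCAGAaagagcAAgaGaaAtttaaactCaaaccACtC

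Other stretches are identical, so that a read falling inside them cannot be placed by its own bases. The libraries were paired-end, so a mate outside such a stretch could still place it. The longest run shared by Nlrp9a and Nlrp9b covered 129 bases, coding positions 589 to 717 of both. The most alike members were Nlrp4c and Nlrp4e, whose coding sequences were 93.9% identical and shared a run of 120 bases at coding positions 121 to 240. Both runs are given here to show what a read from them would look like.
Nlrp9a and Nlrp9b: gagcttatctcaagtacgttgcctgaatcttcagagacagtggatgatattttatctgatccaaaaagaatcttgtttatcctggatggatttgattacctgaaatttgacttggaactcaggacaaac
Nlrp4c and Nlrp4e: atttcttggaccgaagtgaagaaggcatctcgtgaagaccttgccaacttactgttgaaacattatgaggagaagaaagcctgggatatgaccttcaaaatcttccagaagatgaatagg

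The share of a gene that can be told from every other place in the genome was measured by cutting its exons into overlapping windows of 50 or 100 bases. All 50-base windows of Nlrp14 and Nlrp4b were found once in mm9, as were 99.1% of those of Nlrp2. The share was 93.2% for Nlrp9a, 89.1% for Nlrp9b and 96.9% for Nlrp9c. It was lowest for Nlrp4e, at 57.9%, where 1201 of 2851 windows recurred elsewhere. Next came Nlrp5 at 84.7%, with 424 of 2767 windows recurring, then Nlrp4c at 85.6%, while Nlrp4f was at 92.2%. Nlrp5 shared none of its windows with another member. With 100-base windows Nlrp4e rose to 84.0% and the other members lay between 96.4% and 100%. These windows stand for single reads and take no account of a read's mate. The sources used here give neither the read length nor the handling of reads with several placements. The counts of Nlrp4e, Nlrp5 and Nlrp4c in particular could therefore be split between places in the genome or lost.

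**Figure D1:**
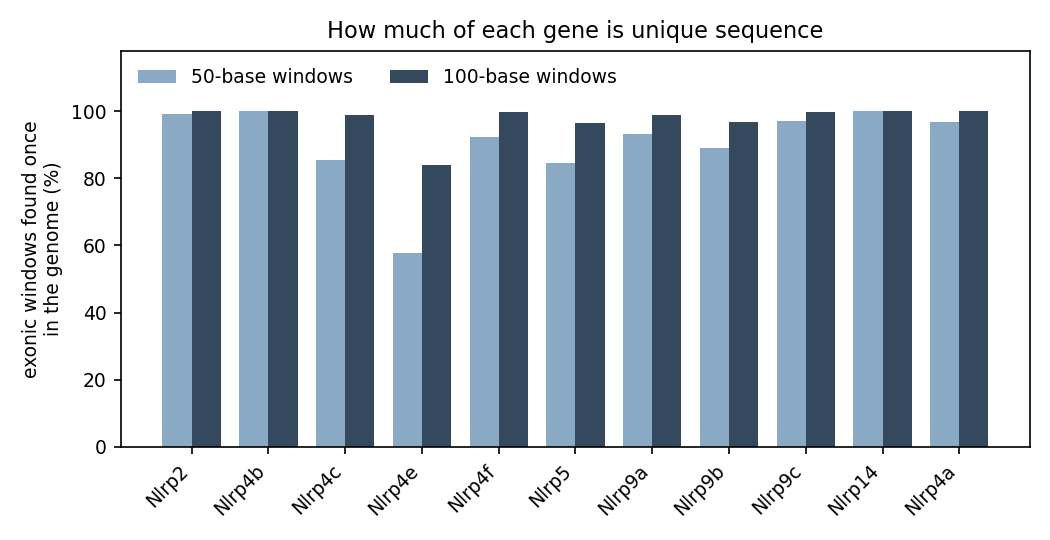
Share of exonic windows of 50 bases (light bars) or 100 bases (dark bars) found once in the mm9 genome, in percent, for the 10 members and Nlrp4a. Nlrp4e stands lowest in both, at 57.9% and 84.0%, while Nlrp14 and Nlrp4b are at 100%.

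The members were expressed at very different levels, and Nlrp14 was among the most abundant transcripts of the oocyte. Its counts ranked between 1st and 7th of all genes in the 6 libraries and took 0.498% to 1.13% of a library. Nlrp5 ranked 12th to 20th and Nlrp9b 30th to 54th. At the other end, Nlrp4c ranked 4983rd at best. Levels of different genes are compared per length, as CPM per kb of merged exons. In Control they were 2340 ± 811 for Nlrp14, 815 ± 96.8 for Nlrp5, 448 ± 115 for Nlrp9b and 350 ± 60.9 for Nlrp9a. Below these stood Nlrp4f at 210 ± 12.3, Nlrp2 at 157 ± 5.70, Nlrp9c at 106 ± 6.53, Nlrp4b at 93.9 ± 10.4, Nlrp4e at 53.9 ± 3.54 and Nlrp4c at 7.34 ± 1.25 CPM per kb.

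In that Control order, Nlrp9b and Nlrp9a overlapped between libraries, as did Nlrp9c and Nlrp4b, and every other pair of neighbours was separate. In Lsd1 KO the top 3 places were unchanged. Nlrp4f, at 195 ± 28.3 CPM per kb, stood above Nlrp9a at 179 ± 45.7, and their libraries overlapped. Nlrp2, Nlrp4b, Nlrp9c and Nlrp4e came next, between 83.5 and 68.0 CPM per kb, each overlapping its neighbour among these 4. With the longest transcript as the length, Nlrp9c stood above Nlrp2 in Control, at 197 against 157 CPM per kb, since its merged exons (5935 bases) are far longer than its longest transcript (3216 bases). With the number of unique 50-base windows as the length, a choice made after seeing the data, Nlrp4e stood above Nlrp4b in Control, at 108 against 105 CPM per kb.

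**Figure D2:**
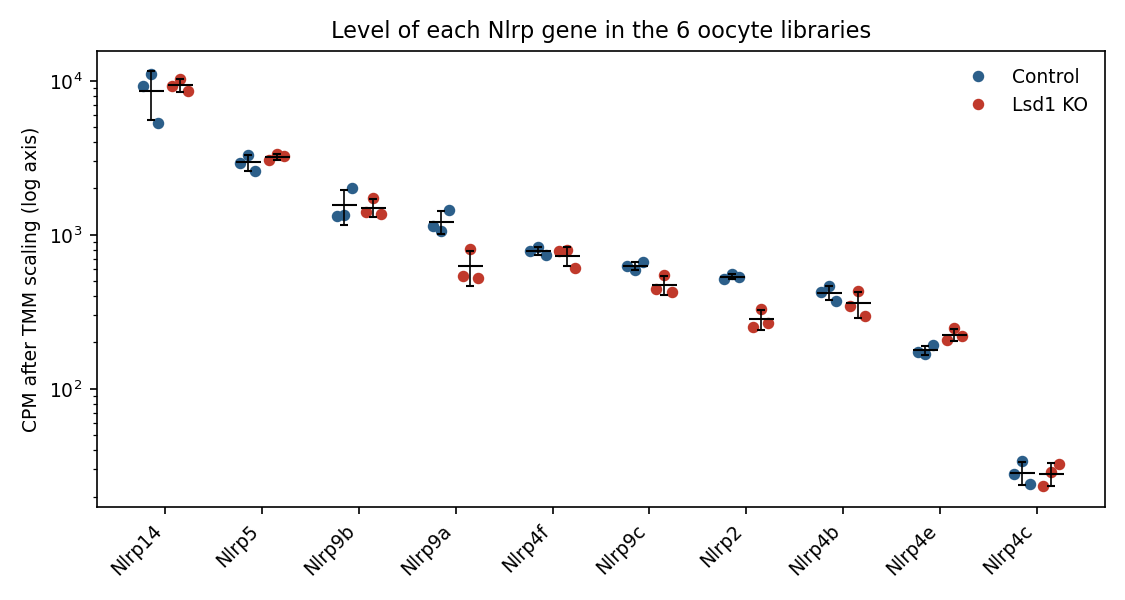
CPM after TMM scaling (log axis) of the 10 members in each of the 3 Control (blue) and 3 Lsd1 KO (red) libraries, with the mean and SD in black. The 2 groups lie apart for Nlrp9a, Nlrp9c, Nlrp2 and Nlrp4e, and 1 Control library of Nlrp14 lies below the other 5.

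Between genotypes, 2 of the 10 members fell in Lsd1 KO, Nlrp2 and Nlrp9a, and none rose. Among all genes tested 10.3% were lower and 11% higher, and with 10 members the share lower rests on these 2 genes. Neither DESeq2 nor limma-voom called a member higher, and at an unadjusted p under 0.05 edgeR gave 0 higher and 3 lower, where 17.6% of all genes tested were higher and 17.4% lower. Both of those tools called 2 members lower, beside 12.2% of all genes with DESeq2 and 10% with limma-voom. The median log2 fold change of the members was -0.08, beside -0.01 over all genes tested. The CPM of the groups did not overlap for 4 members, 3 of them lower (Nlrp2, Nlrp9a, Nlrp9c) and 1 higher (Nlrp4e) in Lsd1 KO. Of all genes tested 38.7% had no overlap, 19.1% lower and 19.5% higher.

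Nlrp2 had 3140, 3660 and 3000 counts in the Lsd1 KO libraries, in replicate order, against 5589, 7372 and 5891 for Control. These are 252, 330 and 269 CPM against 517, 555 and 532 CPM, so that the highest Lsd1 KO library lay well under the lowest Control library. The mean fell from 535 ± 19.4 to 284 ± 41.1 CPM, a log2 fold change of -0.91 ± 0.17 (95% interval -1.29 to -0.54, edgeR adjusted p = 0.00349), or 1.88-fold. Control libraries were tightly grouped for this gene, with a coefficient of variation of 3.62%. The call held with each single library left out, with an adjusted p of at most 0.0320.

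Nlrp9a had 6779, 8954 and 5816 counts in Lsd1 KO and 12336, 13992 and 16129 in Control. Scaled, these were 543, 808 and 522 CPM against 1141, 1054 and 1457 CPM. Lsd1 KO replicate 2 was the highest of its group, and still under every Control library. The mean fell from 1217 ± 212 to 624 ± 159 CPM, a log2 fold change of -0.96 ± 0.21 (95% interval -1.43 to -0.50, edgeR adjusted p = 0.00811), or 1.95-fold. Without Lsd1 KO replicate 1 the log2 fold change was -0.84 and missed the threshold (edgeR adjusted p = 0.0522), and it passed in the other 5 fits that left out 1 library.

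The other Nlrp9 copies gave different values. Nlrp9c stood at 443, 549 and 428 CPM in Lsd1 KO, against 632, 593 and 671 for Control, 2 groups that did not overlap. Its log2 fold change of -0.42 ± 0.17 (95% interval -0.79 to -0.04) did not pass (edgeR adjusted p = 0.104). Nlrp9b, which in the mouse intestine is known as an inflammasome sensor, was at 1402, 1732 and 1373 CPM in Lsd1 KO, against 1325, 1335 and 2020 for Control. The groups overlapped fully, and the log2 fold change was -0.05 ± 0.21 (95% interval -0.50 to 0.39, edgeR adjusted p = 0.875). Without Control replicate 3, the highest library for Nlrp9b, that value was 0.16.

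None of the 4 Nlrp4 members passed. Nlrp4e was the member with the largest positive value, at 209, 248 and 219 CPM in Lsd1 KO, against 175, 169 and 191 for Control. The groups were separate, with a log2 fold change of 0.34 ± 0.16 (95% interval -0.02 to 0.69, edgeR adjusted p = 0.165). This is also the member with the least unique sequence. Nlrp4b, at 296 to 434 CPM in Lsd1 KO, against 372 to 464 for Control, had -0.23 ± 0.19 (edgeR adjusted p = 0.409), and between -0.41 and -0.08 with 1 library left out. For Nlrp4f, a subunit of the subcortical maternal complex and the only member on chromosome 13, the value was -0.10 ± 0.18 (edgeR adjusted p = 0.710), at 731 ± 106 against 785 ± 46.1 CPM. The rare Nlrp4c had 291, 318 and 363 counts in Lsd1 KO and 301, 449 and 268 in Control, and -0.02 ± 0.21 (edgeR adjusted p = 0.953).

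The most abundant members, Nlrp5 and Nlrp14, did not pass either. Nlrp5 was at 3040, 3339 and 3231 CPM in Lsd1 KO, against 2930, 3314 and 2614 for Control, with a log2 fold change of 0.12 ± 0.17 (95% interval -0.26 to 0.49, edgeR adjusted p = 0.665). With 1 library left out it ranged from 0.024, without Control replicate 3, to 0.22. Nlrp14 was at 9283, 10259 and 8546 CPM in Lsd1 KO, against 9192, 11100 and 5298 for Control. Control replicate 3 was far below the other 5 libraries, and the coefficient of variation was 34.7% in Control against 9.18% in Lsd1 KO. Over all genes tested, the log2 CPM of this library correlated at 0.958 and 0.955 with Control replicates 1 and 2. Those replicates correlated at 0.972 with each other, and the Lsd1 KO libraries at 0.955 to 0.968 among themselves. The log2 fold change of Nlrp14 was 0.13 ± 0.24 (95% interval -0.39 to 0.66, edgeR adjusted p = 0.730) and -0.13 without Control replicate 3, so that its sign depended on that library.

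**Figure D3:**
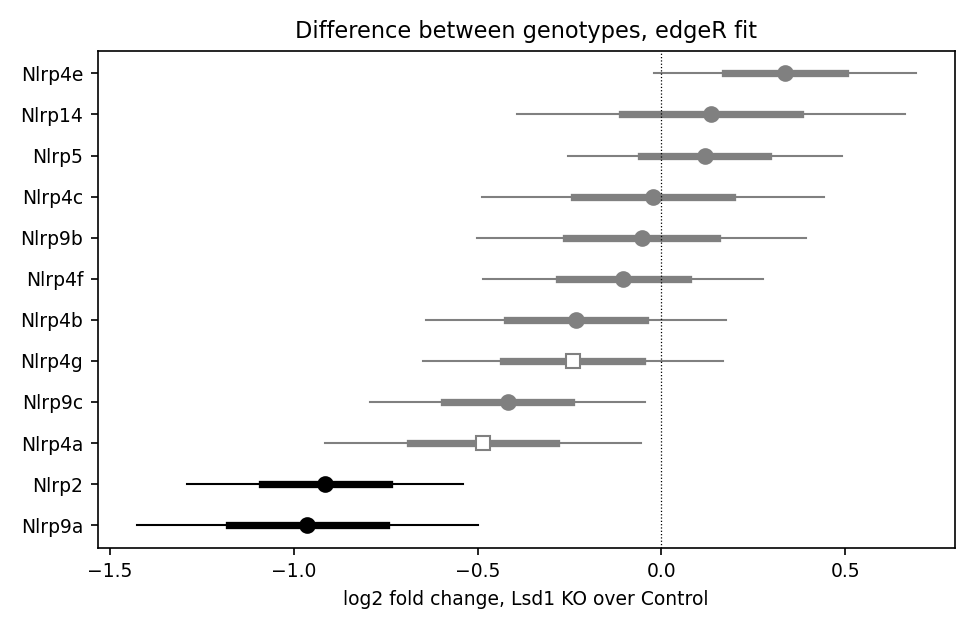
Log2 fold change of Lsd1 KO over Control for the 10 members (circles) and for Nlrp4a and Nlrp4g, which are not among them (open squares), with SE (thick lines) and 95% interval (thin lines). Black marks an edgeR adjusted p under 0.05. Nlrp9a and Nlrp2 stand at the bottom, at -0.96 and -0.91.

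Summed over the 10 members, the family held 16792 ± 1552 CPM in Lsd1 KO, against 16840 ± 2778 for Control, or 1.31% to 1.98% of a library's counts. The 2 means differ by far less than the spread between libraries. Nlrp14 alone made up 55.0% to 56.9% of the sum in Lsd1 KO and 53.6%, 57.1% and 38.1% in Control replicates 1 to 3. Without Nlrp14 the sum was 7430 ± 724 CPM in Lsd1 KO, against 8310 ± 336 for Control, with libraries of the groups overlapping.

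Members were then compared in pairs inside each library, as the log2 ratio of their counts, which depends on neither scaling nor depth. There were 15 pairs, 9 within the Nlrp4 or Nlrp9 groups and 6 more of members next to each other in the order of members along chromosome 7. In 9 pairs the groups did not overlap, 5 of them within a group of copies. Among pairs of tested genes that follow each other on a chromosome, 38.5% had no overlap. The 15 pairs differ from those in kind, since some join members far apart or on different chromosomes. They also share genes, so they are not independent. With 3 samples against 3, an exact two-sided permutation test cannot go below p = 0.1, and no pair can pass. The smallest value after Benjamini-Hochberg adjustment over the 15 pairs was 0.167.

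Within the Nlrp9 group, the ratio of Nlrp9a to Nlrp9b was lower in every Lsd1 KO library than in any Control library. Nlrp9a had 0.789 counts per count of Nlrp9b in Control and 0.410 in Lsd1 KO, as geometric means. The log2 ratios were -0.22, -0.34 and -0.47 in Control and -1.37, -1.10 and -1.39 in Lsd1 KO, a difference of -0.94 with groups well apart (exact permutation p = 0.1, adjusted 0.167). Nlrp9a to Nlrp9c went from 0.93 ± 0.16 to 0.38 ± 0.15 on the log2 scale, a difference of -0.55, again without overlap. Nlrp9b to Nlrp9c went the other way, from 1.28 ± 0.28 to 1.67 ± 0.01, a difference of 0.39. The 3 Lsd1 KO libraries lay within 1.66 to 1.68 for that last ratio, just above Control replicate 3 at 1.59. Relative to both other copies, Nlrp9a was lower in Lsd1 KO.

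Within the Nlrp4 group, the pairs without overlap were those of Nlrp4e with Nlrp4b and with Nlrp4f. Nlrp4b to Nlrp4e went from 1.24 ± 0.25 to 0.66 ± 0.20, a log2 difference of -0.58, and Nlrp4e to Nlrp4f from -2.14 ± 0.18 to -1.69 ± 0.22, a difference of 0.45. Nlrp4b to Nlrp4f, both with over 92% of 50-base windows unique, differed by -0.13 with overlapping libraries (exact permutation p = 0.2, adjusted 0.273). Nlrp4c to Nlrp4e, the most alike pair, differed by -0.36, also with overlap (exact permutation p = 0.2, adjusted 0.273). The remaining pairs of the group, Nlrp4b to Nlrp4c and Nlrp4c to Nlrp4f, differed by -0.22 and 0.09 and overlapped.

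**Figure D4:**
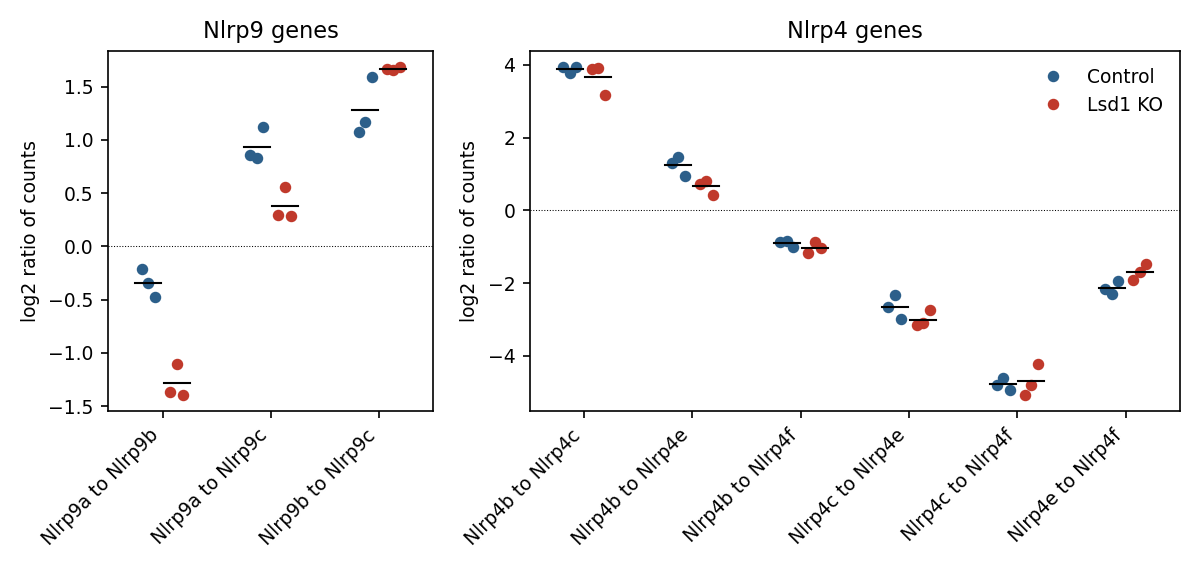
Log2 ratio of the counts of 2 copies within a library, for the 3 pairs of Nlrp9 genes (left) and the 6 pairs of Nlrp4 genes (right), with Control in blue, Lsd1 KO in red and group means as black lines. The ratio of Nlrp9a to Nlrp9b lies at -0.22 to -0.47 in Control and -1.10 to -1.39 in Lsd1 KO.

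Among the 6 further pairs, 4 did not overlap. Nlrp2 to Nlrp4c differed by -0.90, from 4.23 ± 0.21 in Control to 3.33 ± 0.25 in Lsd1 KO, and Nlrp9a to Nlrp14 by -1.17. The latter had a wide Control spread, from -3.40 to -1.86, and the difference was -0.73 without Control replicate 3, where Nlrp14 was lowest. Nlrp5 to Nlrp9c differed by 0.55 and Nlrp9b to Nlrp4e by -0.37, or -0.22 without Control replicate 3. Nlrp4b to Nlrp9b and Nlrp4e to Nlrp5 overlapped, at -0.21 and 0.21.

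By position, 9 of the 10 members lie on mm9 chromosome 7. In order these are Nlrp2 (5250156 to 5302637, minus strand), Nlrp4c (5996763 to 6056751), Nlrp4b (11273142 to 11315517) and Nlrp9b (20593372 to 20658655). Nlrp4e (24086294 to 24147289) and Nlrp5 (24170908 to 24226941) are next to each other. Nlrp9c (27107492 to 27188719, minus strand) and Nlrp9a (27320042 to 27360634) flank Nlrp4a. Nlrp14 (114310504 to 114341616) stands far from the rest, and Nlrp4f lies on chromosome 13 (65278419 to 65307276, minus strand). The 2 called members, Nlrp2 and Nlrp9a, are thus at opposite ends of the proximal run of chromosome 7 with members that did not pass between them.

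The nearest genes outside the family were often vomeronasal receptors with few or no counts. Of 17 neighbouring or overlapping genes in the files, 7 were tested, of which 3 were higher and none lower by edgeR, where 11% of all genes tested were higher. Their median log2 fold change was 0.34. DESeq2 called 1 of the 7 lower, Gm5065, described next. The cell adhesion gene Ceacam20, 16910 bases from Nlrp9b, rose from 81.0 ± 18.2 to 134 ± 12.1 CPM (change in log2 0.73 ± 0.20, edgeR adjusted p = 0.0199). Cyp2a4, a cytochrome P450 gene 7385 bases from Nlrp9c, rose from 0.480 ± 0.0409 to 2.76 ± 1.09 CPM (edgeR adjusted p = 0.0132). Each Control library held only 5 to 7 reads of Cyp2a4, while the Lsd1 KO libraries held 18 to 42. With a minimum count of 10, Cyp2a4 passed the filter through its Lsd1 KO libraries alone. A gene let in on that ground could come out higher but hardly lower, which limits its weight among the 3 higher neighbours. The RNA-binding gene Rbmxl2, 11343 bases from Nlrp14, rose from 3.53 ± 0.460 to 8.31 ± 1.96 CPM (edgeR adjusted p = 0.0261). Each of the 3 calls was lost in 3 or 4 of the 6 fits that left out 1 library: without Lsd1 KO replicate 3 or Control replicate 1 or 2 for Ceacam20 (adjusted p up to 0.0813), without Lsd1 KO replicate 1 or 2 or Control replicate 1 or 2 for Cyp2a4 (up to 0.0579), and without Lsd1 KO replicate 1 or 3 or Control replicate 1 or 2 for Rbmxl2 (up to 0.0959). The Ceacam20 call was also lost after adjusting for length and GC (log2 0.55, adjusted p = 0.0587), which left 2 of the 7 higher. Cyp2a4, 219935 bases away, is also the nearest gene of another family on that side of Nlrp9a.

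Gm5065 overlaps the start of Nlrp2 by 494 bases on the opposite strand. It was at 65.0 ± 12.9 CPM in Lsd1 KO, against 104 ± 30.9 for Control, a log2 value of -0.68 ± 0.23 that missed the threshold (edgeR adjusted p = 0.0563). This gene passed with DESeq2 (adjusted p = 0.0305), and without Lsd1 KO replicate 2 (0.0328) or Control replicate 3 (0.0178). Whether counting used strand is not given, so reads in the shared bases cannot be told apart.

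The promoter sequences of the 2 called genes and of Nlrp9c are shown because Nlrp9a and Nlrp9c share most of theirs. RefSeq (GRCm38.p6) promoter windows were matched for 9 of the 10 members, not for Nlrp14, and each was matched letter for letter to mm9. These are the 250 bases before the start, 5′ to 3′ on the gene's strand, with capitals at CCAAT or its reverse complement ATTGG. The windows lie at chr7:5302638-5302887 (minus strand) for Nlrp2, chr7:27319792-27320041 (plus strand) for Nlrp9a and chr7:27188720-27188969 (minus strand) for Nlrp9c, in mm9.
Nlrp2: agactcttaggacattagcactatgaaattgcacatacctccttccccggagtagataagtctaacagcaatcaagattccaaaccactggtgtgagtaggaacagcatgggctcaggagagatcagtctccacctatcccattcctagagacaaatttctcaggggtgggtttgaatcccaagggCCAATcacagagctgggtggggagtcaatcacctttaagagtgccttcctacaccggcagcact
Nlrp9a: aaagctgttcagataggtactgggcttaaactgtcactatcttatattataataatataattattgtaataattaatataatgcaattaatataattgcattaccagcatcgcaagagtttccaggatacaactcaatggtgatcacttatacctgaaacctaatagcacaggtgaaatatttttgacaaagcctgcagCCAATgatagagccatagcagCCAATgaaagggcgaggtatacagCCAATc
Nlrp9c: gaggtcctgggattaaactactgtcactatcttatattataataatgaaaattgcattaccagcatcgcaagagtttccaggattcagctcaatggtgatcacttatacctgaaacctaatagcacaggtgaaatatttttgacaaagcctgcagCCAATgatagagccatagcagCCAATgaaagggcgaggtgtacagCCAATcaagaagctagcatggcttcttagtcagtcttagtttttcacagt

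Nlrp9a and Nlrp9c were 97.1% identical over 172 aligned bases of these windows, each with 3 CCAAT motifs. Both genes were lower in Lsd1 KO, with log2 fold changes of -0.96 for Nlrp9a and -0.42 for Nlrp9c. For each gene the CPM of the groups did not overlap. Only Nlrp9a was called (edgeR adjusted p = 0.00811, against 0.104 for Nlrp9c). The log2 ratio of Nlrp9a to Nlrp9c differed by -0.55 without overlap (exact permutation p = 0.1, the lowest possible). Nlrp2 held 1 such motif and aligned with neither over more than 14 bases. On either strand, CCAAT was in a window of 7 of 9 members, 3 of them with at least 3 copies, while 33.8% of the 32817 RefSeq promoter windows of the same length held it and 2.79% held 3 or more. Nlrp4b and Nlrp5 had more than 1 window each, any of which could count, while the shares are per single window. Nlrp5 held CCAAT in only 1 of its windows. The members are duplicates, so their windows are not independent, and this motif was picked after the windows were read. CANNTG, the E-box that FIGLA and other basic helix-loop-helix factors bind, was in 7 of 9 members and 66.2% of all windows. TAATTG, a homeodomain motif bound by the oocyte factor NOBOX, was in 2 of 9 members, Nlrp9a and Nlrp9b, and in 7.17% of all windows. These are matches of letters only.

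In each list of genes related to the members by family or function, edgeR called 0 or 1 gene, where 21.3% of all genes tested were called in either direction. With 6 to 9 genes tested in a list, such a number cannot be told apart from that share. Of 23 other NLR genes, 22 were in the files and 9 were tested, and edgeR, DESeq2 and limma-voom called none. Their median log2 fold change was -0.24, with 8 of the 9 negative. At an unadjusted p under 0.05 edgeR gave 1 lower, Nlrp4a, named after its values were seen. This further oocyte copy, between Nlrp9c and Nlrp9a, was at 591, 747 and 490 CPM in Lsd1 KO, against 778, 992 and 789 for Control, groups that did not overlap (log2 -0.49 ± 0.20, edgeR adjusted p = 0.10). Its copy Nlrp4g, also named afterwards, was at 242 ± 51.7 against 286 ± 11.5 CPM (change in log2 -0.24 ± 0.19). The inflammasome gene Nlrp3 had 16, 8 and 9 counts in Lsd1 KO and 4, 3 and 10 in Control, too few to test, and Nlrp1b had no count in any library.

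Of 12 inflammasome partners, 6 were tested, with 1 lower and none higher and a median log2 fold change of -0.05. That gene was Nfkb1, a subunit of NF-kappaB, which was at 1.52, 5.95 and 2.15 CPM in Lsd1 KO, under the Control libraries at 9.43, 9.87 and 13.6 CPM (change in log2 -1.78 ± 0.47, edgeR adjusted p = 0.0179), a call lost without Lsd1 KO replicate 1 (adjusted p = 0.0707) or 3 (0.0731). The adaptor Pycard and the caspase substrate Gsdmd had too few counts to test. Of 7 measured partners of the subcortical maternal complex and cytoplasmic lattices, 1 was higher and none lower, with a median log2 fold change of 0.12. Zbed3 rose from 6866 ± 1411 to 13502 ± 2096 CPM (change in log2 0.98 ± 0.20, edgeR adjusted p = 0.00602). Ooep, Tle6 and Padi6 are named as partners of Nlrp5 in this list. Their log2 values of -0.22, 0.36 and 0.12 did not pass.

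Of 8 tested oocyte transcription regulators, 1 was lower and none higher, where 10.3% of all genes tested were lower. All 8 log2 values were negative, with a median of -0.44, where 6571 of all 12935 were negative. At an unadjusted p under 0.05 edgeR gave 4 lower and 0 higher, where 17.4% of all genes tested were lower. The CPM of the groups did not overlap for 4 regulators, where 38.7% of all genes tested had no overlap. The TFIID subunit Taf4b fell from a Control level of 84.0 ± 18.3 to 48.0 ± 6.80 CPM (change in log2 -0.81 ± 0.20, edgeR adjusted p = 0.0150). It missed the threshold without replicate 1 (adjusted p = 0.0585) or 3 (0.0826) of Lsd1 KO, and without replicate 2 of Control (0.0821). After adjusting counts for length and GC, 5 of the 8 were lower, Nobox among them. Over all genes, that setting gave 1551 of 12503 lower and 1207 higher, with a median log2 fold change of -0.08. In the reported fit Nobox was at 411 ± 8.27 CPM against 498 ± 24.4 CPM (change in log2 -0.27 ± 0.16, edgeR adjusted p = 0.241).

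Over the 6 libraries, the tested gene whose centred log2 CPM came closest to the mean profile of the 10 members was Jazf1, with a root mean square difference of 0.03 on the log2 scale. Lmbr1 and Ddx5 followed, both at 0.04. None of these 3 was called. Among the members themselves, Nlrp2 and Nlrp9a were each other's closest at 0.18, as were Nlrp4b and Nlrp4f at 0.12 and Nlrp4c and Nlrp5 at 0.14. These are descriptions over 6 libraries that share the genotype difference.

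Markers of other cells were compared with the oocyte markers, since follicle cells can adhere to the oocyte. The 12 oocyte markers summed to 29987 to 33898 CPM in Lsd1 KO, against 20024 to 23164 for Control, and all were detected. Their largest term was Gdf9, an oocyte growth factor, at 14482 to 16950 against 5569 to 7015 CPM. Without it, a sum taken after the values were seen, the groups overlapped, at 15505 to 17247 against 13008 to 17595 CPM. Gdf9 and Oosp1 (log2 0.82, edgeR adjusted p = 0.00840) were higher, Mos, the kinase that acts in meiotic maturation, was lower (log2 -1.08, adjusted p = 0.00102), and the other 9 did not pass. The 14 granulosa and cumulus markers summed to 389 to 489 CPM in Lsd1 KO, against 132 to 149 for Control, of which 3 were higher and 1 lower. Their largest term was the aromatase gene Cyp19a1, at 239 to 405 against 28.6 to 49.2 CPM, and without it the groups overlapped, at 84.7 to 150 against 99.1 to 104 CPM. Ptgs2 was also higher, at 14.4 to 21.2 against 1.54 to 2.22 CPM (edgeR adjusted p = 6.2e-05), as was Inha (adjusted p = 0.0430). Nr5a2 was lower (log2 -1.28, edgeR adjusted p = 0.000786), at 25.7 to 33.2 against 67.5 to 73.0 CPM. It made up most of the Control sum that was left without Cyp19a1. The other tested granulosa and cumulus markers had positive log2 values, except Kitl at -0.24. Amh and Has2 had too few counts to test. The 13 blood and immune markers summed to 7.49 to 119 CPM in Lsd1 KO, against 4.82 to 37.4 for Control, with the 4 globin genes at 0. These groups overlapped with and without their largest term, Lyz2. The 10 theca and stroma markers summed to 10.7 to 16.5 against 2.40 to 3.54 CPM, with Insl3 at 0. Without their largest term, Dcn, those groups still did not overlap, at 3.61 to 8.71 against 2.13 to 2.94 CPM. Dcn itself was at only 0.277 to 0.603 CPM in Control, so the limit given for Cyp2a4 holds for it too. In these lists Cd68, a macrophage gene (log2 1.86, edgeR adjusted p = 0.0281), and Dcn, a stromal gene (log2 4.14, adjusted p = 0.000192), were higher and none was lower. Their part in the differences of Nlrp2 and Nlrp9a was not tested. In pooled oocytes, fewer cells with a transcript and less transcript in each cell cannot be told apart.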

How the data were processed

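The authors' deposited files hold raw read counts per gene symbol, 1 column for each of the 6 samples, as whole numbers. Per the labels' protocols, oocyte lysates went straight into NuGEN Ovation amplification, and the cDNA into paired-end TruSeq libraries. Tools listed in the submitters' processing notes are TopHat2 2.0.7, HTSeq 0.5.3p9 and CASAVA 1.8.2, with the build mm9; the sources used here give no options, annotation or strand use. Lsd1 KO was compared with Control by edgeR 4.0.16 in R 4.3.3 (filterByExpr with minimum count 10, TMM, quasi-likelihood F test, two-sided, threshold 0.05). SEs and 95% intervals were derived from that fit. DESeq2 1.42.0 and limma 3.58.1 (voom) were alternatives, with other scalings and filters, a replicate block, a length and GC correction and each library left out. Ratios of copies used a pseudocount of 0.5 and an exact permutation test. Positions and lengths came from GENCODE M1 on NCBIM37, the assembly of mm9. Members and lists were chosen with earlier results of these data known. All members were named, with up to 4 called genes of each related list. Neighbours that were called or overlap a member were named too. The fit was tested on simulated data for 12711 genes, 100 with a true log2 change of size 1 and 100 of size 2. It found 59% of the former and 91% of the latter, and 9 of 159 calls were false. In the real data 21.3% of genes were called, a far larger share than was changed here. These rates therefore do not give the power of the reported fit. Nlrp4a, Nlrp4g, Nlrp3, Nlrp1b, Pycard, Gsdmd, Ooep, Tle6, Padi6 and Nobox fall outside this rule and were named with their values known. The comparison over samples treats the 6 libraries as unpaired.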

Additional observations from a re-analysis of the deposited data

How the results depend on the processing

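Beside the reported fit, 16 settings were tried for each member. Nlrp2 kept its call in all 16 (log2 -1.06 to -0.81) and Nlrp9a in 15 (log2 -1.22 to -0.81), and no other member passed in any. The number of members lower was 1 to 2 with 1 library left out, and the number higher was 0 throughout. Values near 0 changed sign without passing. Nlrp4c was at 0.019 with upper-quartile scaling, 0.0030 with library totals, 0.040 with at least 10 CPM in 3 libraries, and between -0.14 and 0.13 with 1 library left out. Nlrp9b was at 0.014 with that filter and between -0.19 and 0.16 with 1 library left out, Nlrp4f between -0.19 and 0.043, and Nlrp14 between -0.13 and 0.38. With 1 library left out, the log2 ratio of Nlrp4b to Nlrp4c differed by -0.35 to 0.018 and that of Nlrp4c to Nlrp4f by -0.15 to 0.28. Of the other NLR genes, 1 was higher with no filter, and 0 to 1 were higher and 0 to 1 lower with 1 library left out. Inflammasome partners lower numbered 0 with at least 10 CPM in 3 libraries and at an adjusted p under 0.01, and 0 to 1 with 1 library left out. Oocyte regulators lower numbered 2 with library totals or DESeq2, 3 with no filter, 5 with the length and GC correction, 0 at an adjusted p under 0.01, and 0 to 2 with 1 library left out. Over all genes, those lower numbered 1230 of 12935 with library totals and 1572 of 12935 with DESeq2. With no filter, 1682 of 18946 genes were higher and 1462 lower. With at least 10 CPM in 3 libraries, 1175 of 8267 were higher and 1016 lower. With the length and GC correction, 1207 of 12503 were higher and 1551 lower. Neighbouring genes higher numbered 1 with at least 10 CPM in 3 libraries, 2 with the length and GC correction, 0 at an adjusted p under 0.01 and 0 to 3 with 1 library left out. Neighbouring genes lower numbered 1 with DESeq2, no filter or the length and GC correction, and 0 to 1 with 1 library left out. The cause of these changes was not tested. Same-numbered libraries had correlated deviations of -0.03 to 0.11, only 1 of 3 pairs was over 0.1, and 1 of 3 Lsd1 KO libraries correlated best with its own number. With a replicate block Nlrp2 was at -0.92 and Nlrp9a at -0.98, both called, 2 members were lower, and over all genes 1270 were higher and 1098 lower, against 1421 and 1329 in the reported fit. With 1 library left out, 932 to 1466 were higher and 638 to 1346 lower. Depth limits little here beside the spread between libraries: the lowest count of any member was 268, for Nlrp4c in Control replicate 3.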
